A study of Homo sapiens with 6 samples.

Results

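The RNA of 6 libraries of SW480 cells was sequenced, and the 2 libraries numbered replicate 3, 1 of control cells and 1 of cells transfected with *MDM4* plasmids, are described here against the 4 libraries numbered replicates 1 and 2. They were chosen by the number in their sample titles, 2 of 6 in all, and were singled out with earlier results of these data known. SW480 is an established line of human colon adenocarcinoma cells that carries mutant p53 and a truncated APC protein. The labels call the second group "exercised", which was read as the *MDM4* group because the study has no other group. A plasmid was transfected in both groups, and what the control plasmid carried is not given in the sample labels. The study describes the transfection as transient, so that *MDM4* comes from a plasmid and not from the genome alone. The labels name no date, batch, passage or separate culture for replicate 3. The p-values therefore measure only the spread between these 6 libraries, which may be technical.

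A culture of a single line can differ from another in how strongly it grows, and several gene programmes are known to report this. Ribosome biogenesis genes make and assemble rRNA in the nucleolus and are classical targets of the transcription factor MYC. YAP and TAZ are coactivators that bind TEAD factors and turn on genes such as *CYR61* and *CTGF* in spread cells, and they are held in the cytoplasm in crowded cells. In colon cancer cells with truncated APC, β-catenin stays stable and drives TCF target genes such as *AXIN2*. All of this is background and was not measured here.

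The authors deposited FPKM, the reads counted on each gene divided by its length and by the library's total. Between 32920748 and 44561045 reads per library, recovered from the steps of the FPKM values, lay on genes. The 2 replicate 3 libraries had 40083802 and 32920748 reads, inside or just below the range of 34585207 to 44561045 of the others (exact two-sided permutation test, p = 0.933). The median FPKM over genes was between 4.37 and 4.53 in the replicate 3 libraries and between 3.78 and 3.80 in the others. Genes of at least 0.5 FPKM numbered 13016 and 13031 in replicate 3 against 12706 to 12761. The 10 most abundant genes took 4.0% to 4.13% of the reads in replicate 3 and 4.28% to 4.53% in the others. Each of these 3 quantities separated the replicate 3 libraries from the rest without overlap, with an exact two-sided p of 0.133, which is the smallest that 2 against 4 libraries allow. The epithelial markers *EPCAM*, *CDH1*, *KRT8*, *KRT18* and *KRT19* were expressed in every library, and *PTPRC*, *COL1A2*, *DCN* and *PECAM1* were at or near 0. In bulk RNA, fewer cells of a kind and less RNA per cell cannot be told apart.

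In both groups a large share of the genes differed between replicate 3 and the other replicates, and more of them were higher than lower. With limma on log2(FPKM + 0.1) and the *MDM4* group as a covariate, 3808 of the 12884 genes tested, those that averaged 0.5 FPKM or more, were called higher in replicate 3 at an adjusted p under 0.05, or 29.6%. Another 1877 were called lower, or 14.6%. Together they were 5685 genes, 44.1% of those tested, and 67.0% of them were higher. Without control replicate 3, 1890 genes were called higher and 958 lower, and without *MDM4* replicate 3, 1504 and 920. A log2 difference beyond 1 was less common, with 263 genes (2.04%) called and over 2-fold higher and 64 (0.497%) called and over 2-fold lower. The split between the directions depended on how the libraries were scaled. After median ratio scaling, which moved the median of all genes by -0.10, 2462 genes were higher and 2958 lower (45.4% of the called genes higher). After quantile normalization, 2673 were higher and 2553 lower (51.1%). No gene called in 1 direction on FPKM was called in the other under either scaling. Because the median log2 difference of all genes tested was 0.09 on the deposited scale, each value below is to be read relative to it. This median itself differed by expression level, from 0.30 in the lowest quartile of mean FPKM to 0.0036 in the highest. In 4810 genes (37.3%) both replicate 3 libraries lay above the other 4, and in 2371 (18.4%) both lay below.

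The shift was alike in the control and the *MDM4* libraries. The difference of replicate 3 from the mean of replicates 1 and 2 was computed in each group, and these 2 differences share no library. Across the 12884 genes they had a Pearson r of 0.78 and a Spearman rho of 0.82, and the sign was the same in 83.9% of the genes. These figures are across genes of the same 6 libraries, which are not independent replicates, and carry no p. Of 276 genes that were over 2-fold higher in control replicate 3, 274 were also higher in *MDM4* replicate 3, 188 of them over 2-fold. Of 100 genes over 2-fold lower in control replicate 3, 73 were also lower in *MDM4* replicate 3, 46 of them over 2-fold. The mean absolute log2 difference between the 2 replicate 3 libraries was 0.141, within the range of 0.127 to 0.203 among the other 4 libraries, while replicate 3 was 0.306 to 0.333 away from each of the others. On the first principal component, with 63.5% of the variance, the replicate 3 libraries stood at 30.8 and 30.4 and the others between -16.99 and -12.96.

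**Figure D1:**
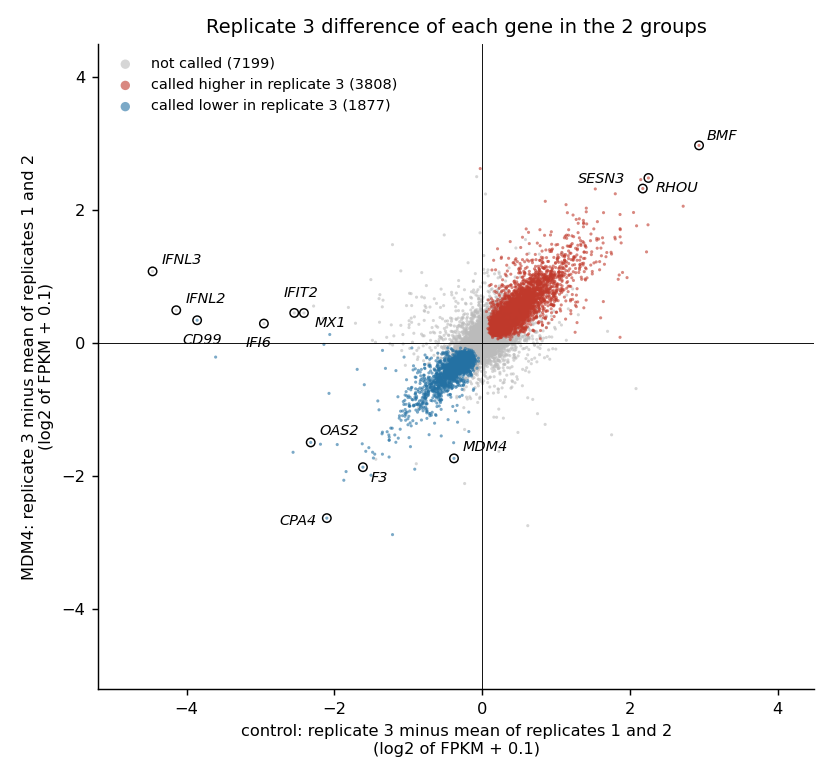
Replicate 3 difference of each of 12884 genes in control (x axis) and in *MDM4* (y axis), as log2(FPKM + 0.1) of replicate 3 minus the mean of replicates 1 and 2. Each point is a gene, coloured by its call over both groups. Most called genes lie along the diagonal, while *IFNL3*, *IFNL2*, *CD99*, *IFI6*, *IFIT2* and *MX1* lie far to the left at an *MDM4* difference near or above 0.

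The difference was larger and more often positive for genes of low expression. In the lowest quartile of genes by mean FPKM the median log2 difference was 0.30, with 35.3% called higher and 5.81% called lower. It was 0.15 and 0.056 in the following quartiles. In the highest quartile it was 0.0036, with 17.9% called higher and 22.7% called lower. The same order held in each group. Spearman's rho between mean level and the difference was -0.33 across genes. The length of the gene, as implied by the FPKM steps, had a rho of 0.075, with medians of 0.062 in the shortest and 0.14 in the longest quartile. No chromosome stood far from the rest, with medians between 0.025 on chromosome 16 and 0.14 on chromosome 6 for the 12255 genes that a RefSeq symbol placed on 1 of the autosomes or the X chromosome.

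**Figure D2:**
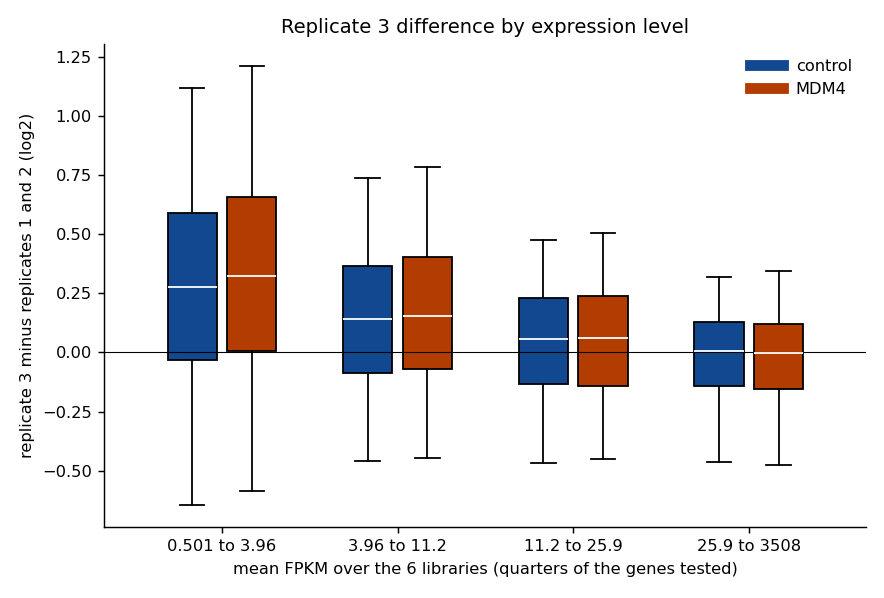
Replicate 3 difference (y axis, log2) of the genes tested, in quartiles of mean FPKM (x axis), in control and in *MDM4*. Boxes give the quartiles with the median as a white line, and whiskers the 5th and 95th percentiles. The median falls from 0.28 and 0.32 in the lowest quartile to about 0 in the highest.

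The gene with the largest difference was *BMF*, whose product is a BH3-only protein that binds and inhibits BCL2 proteins. Here and in what follows, a gene's FPKM values are given in the order of replicates 1, 2 and 3 of each group. *BMF* was at 0.384, 0.21 and 2.87 FPKM in control and at 0.266, 0.241 and 2.68 FPKM in *MDM4*. Both replicate 3 libraries were above the other 4 by a wide margin, and the log2 difference was 2.96 ± 0.24 (SE), or 7.76-fold (limma, adjusted p = 1.95e-05). *BMF* averaged 0.275 FPKM in replicates 1 and 2, so it passed the filter of 0.5 FPKM only through replicate 3. The rule for the 12 genes with the largest difference in each direction required both replicate 3 libraries outside the range of the other 4. *SESN3*, a sestrin that restrains mTORC1 and a known target of FOXO factors, was at 0.788, 1.14 and 4.65 FPKM in control and at 0.901, 1.0 and 5.17 FPKM in *MDM4*. Its log2 difference was 2.25 ± 0.17 (SE) (adjusted p = 1.2e-05). *RHOU*, an atypical small GTPase, was at 0.731, 1.17 and 4.8 FPKM in control and at 0.653, 0.731 and 4.33 FPKM in *MDM4*. It differed by 2.37 ± 0.19 (SE) (adjusted p = 1.84e-05). *GRB7*, an adaptor of receptor tyrosine kinases that is often amplified together with *ERBB2*, was at 2.7, 1.84 and 11 FPKM in control and at 2.75, 2.45 and 9.17 FPKM in *MDM4*. It had the highest level of the 12 genes with the largest positive differences and rose above the others by 2.01 ± 0.16 (SE) (adjusted p = 1.72e-05).

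The other 8 of these 12 genes were expressed at low levels outside replicate 3, at most 1.07 FPKM in replicates 1 and 2. They were *SULT1A3* (2.39), *DISC1* (2.03), the potassium channel gene *KCNJ10* (1.93), the NFAT family gene *NFATC4* (1.93), *PRR15* (1.80), the membrane progestin receptor gene *PAQR8* (1.74), the SNAIL family gene *SNAI3* (1.72) and *YPEL2* (1.70), each with its log2 difference. *SULT1A3* has a near-identical copy, *SULT1A4*, with which its reads may be shared, so its value is uncertain. In all 12 the control and the *MDM4* library of replicate 3 lay above each of the other 4, as the rule for choosing them required. Of the 12, only *GRB7* averaged 1 FPKM or more in replicates 1 and 2. The others reached the mean of 1 FPKM needed to be named only through replicate 3.

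Among the genes lower in replicate 3, *CPA4*, a secreted carboxypeptidase, was at 18.8, 18.1 and 4.22 FPKM in control and at 28.1, 28 and 4.45 FPKM in *MDM4*. The difference was -2.36 ± 0.11 (SE) on the log2 scale, or 5.15-fold lower (adjusted p = 7.93e-07). *ZBED2*, a zinc finger transcription factor, was at 32.5, 32.9 and 9.06 FPKM in control and at 35.4, 36 and 9.31 FPKM in *MDM4*. Its difference of -1.88 ± 0.061 (SE) had the smallest adjusted p of all genes tested (1.17e-07). *F3*, the tissue factor that starts the coagulation cascade and a known YAP and TEAD target, was at 32.4, 34.3 and 10.8 FPKM in control and at 42.5, 42.3 and 11.6 FPKM in *MDM4*. It was lower by 3.33-fold (-1.74 ± 0.071 (SE), adjusted p = 6.58e-07). In each of these genes the 2 replicate 3 libraries were close to each other, as the plot of the 24 genes by library shows. That they lay outside the range of the rest was required by the rule for choosing these genes.

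The other 9 of the 12 genes with the largest negative differences were of varied function. *EDN1*, the peptide endothelin-1, was at 2.87, 2.91 and 0.557 FPKM in control and at 2.66, 3.46 and 0.995 FPKM in *MDM4*, a difference of -1.85 ± 0.18 (SE) (adjusted p = 4.65e-05). *ITGB8*, an integrin subunit that activates latent TGF-β, was at 5.67, 7.08 and 2.06 FPKM in control and at 7.8, 7.16 and 2.36 FPKM in *MDM4*, a difference of -1.60 ± 0.11 (SE) (adjusted p = 9.25e-06). The log2 difference was -1.56 for the laminin subunit gene *LAMA2*, -1.55 for *ITGBL1*, -1.57 for the glycosyltransferase gene *GALNT5*, -1.74 for the NMDA receptor subunit gene *GRIN2B* and -1.56 for the ubiquitin ligase gene *MARCH4*. *EDN1*, *GRIN2B*, *MARCH4*, *LAMA2* and *ITGBL1* averaged under 1 FPKM in replicate 3 and were named only through replicates 1 and 2. The keratin-associated gene *KRTAP2-3* (-1.96) has closely similar copies and is uncertain. *OAS2*, an interferon-stimulated gene, was at 6.27, 5.39 and 1.09 FPKM in control and at 2.57, 3.22 and 0.96 FPKM in *MDM4*. It was lower in replicate 3 in both groups (-1.90 ± 0.18 (SE), adjusted p = 4.66e-05), from different starting levels. All 24 genes were called in the same direction under every alternative setting that tested them, including the fits without each library.

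**Figure D3:**
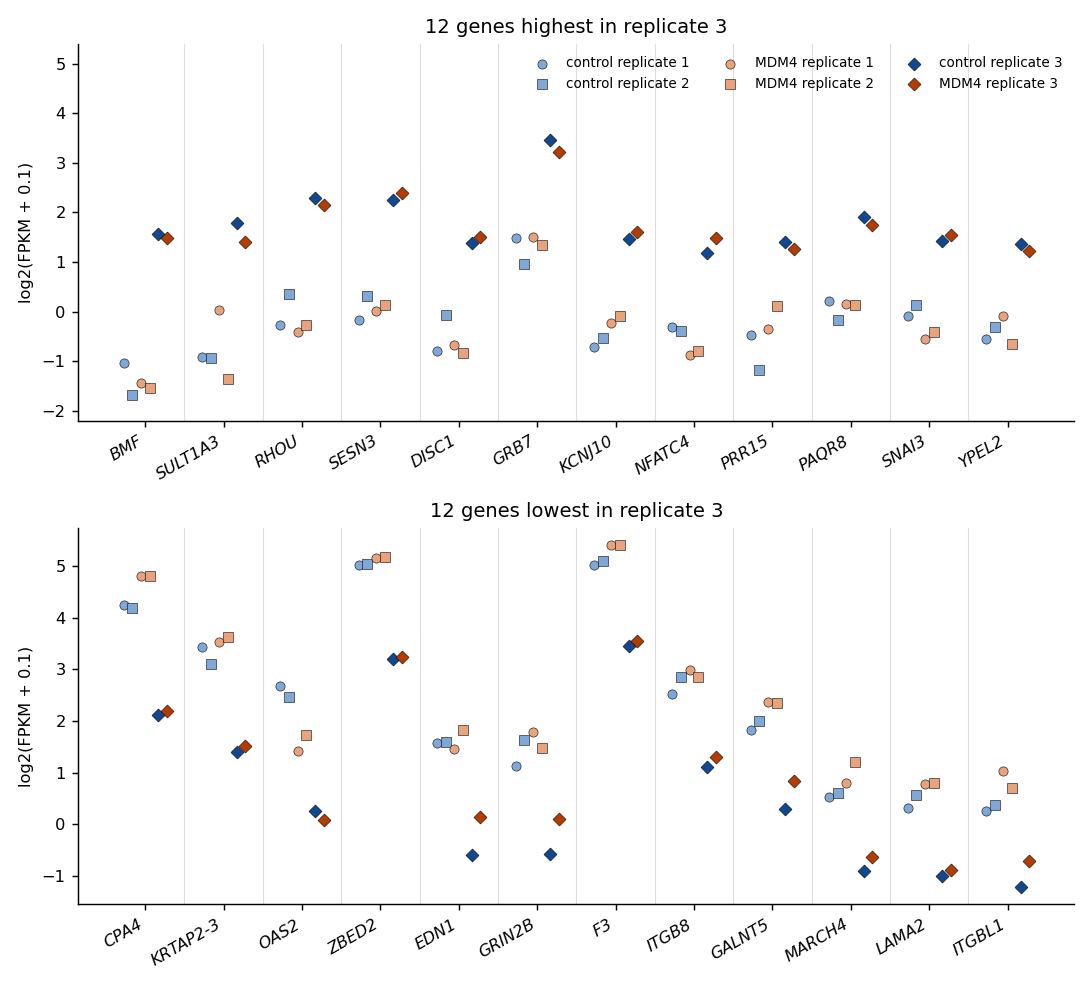
Level in log2(FPKM + 0.1) of the 12 genes with the largest positive (top) and the 12 with the largest negative (bottom) replicate 3 difference, in each of the 6 libraries. Circles and squares are replicates 1 and 2 and diamonds replicate 3, blue for control and orange for *MDM4*. In every gene both diamonds lie outside the range of the other 4 points, which the rule for choosing these genes required.

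To see which functions differed, 34 lists of well-known genes were counted against the background of 29.6% higher and 14.6% lower. This background differs by expression level, and the lists were not matched for it. It was 35.3% higher and 5.81% lower in the lowest quartile of mean FPKM, and 17.9% and 22.7% in the highest. No member of 2 lists, the mitochondrially encoded mRNAs and a set of noncoding RNAs, was in the table, and 32 lists had members that were tested. The lists with the largest share called lower were ribosome biogenesis (84.2%), YAP and TEAD target genes (69.0%), splicing factors (52.8%), SRF and actin cytoskeleton genes (51.9%) and G1/S and DNA replication genes (47.4%). The largest shares called higher were those of Wnt and β-catenin target genes (77.8%), fatty acid synthesis (62.5%), lysosome and autophagy (60%) and immediate early genes (50%), among the lists with 6 or more tested members. The medians of 11 of the 32 lists, all close to 0, changed sign under another scaling, and 16 lists kept their sign under every alternative.

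**Figure D4:**
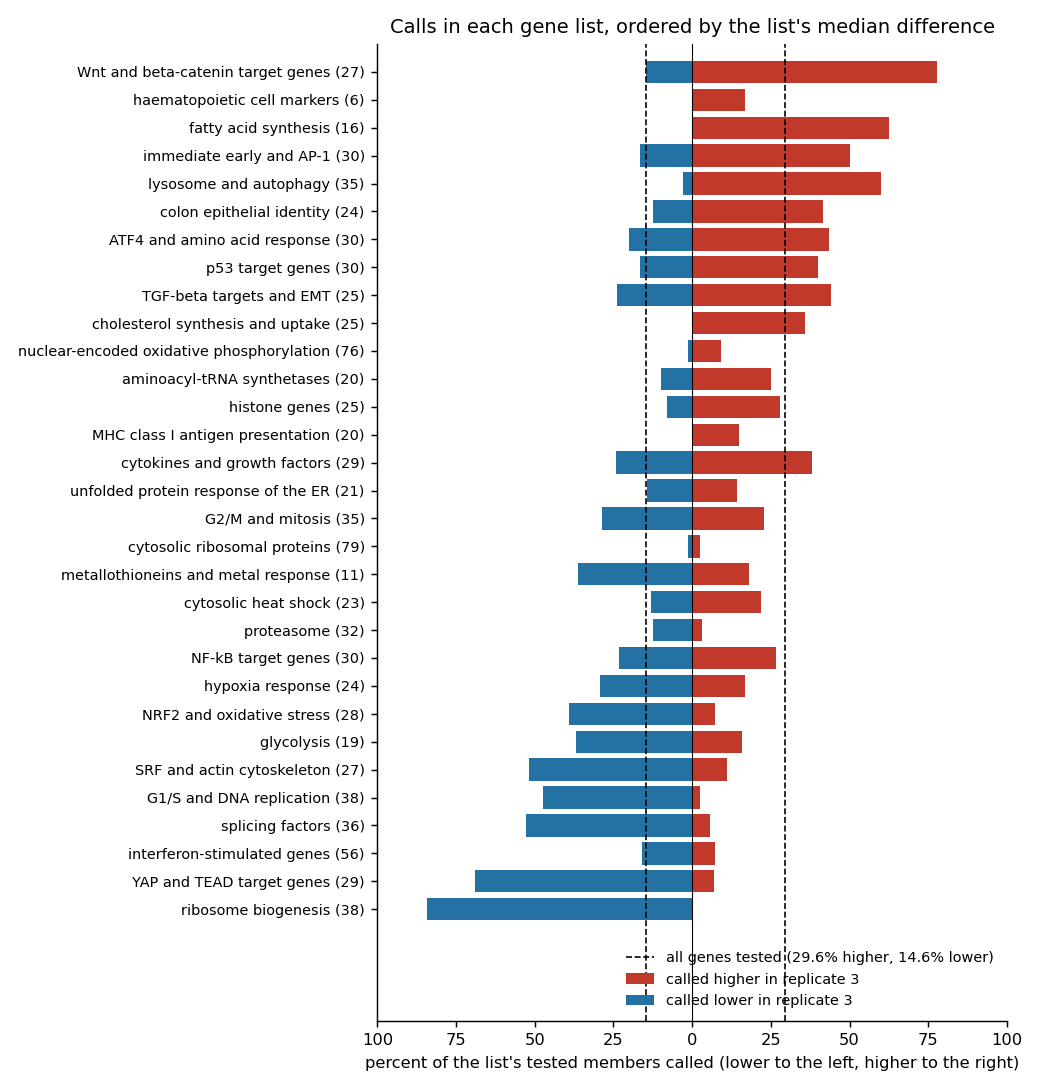
Percent of the tested members of each gene list that were called lower (to the left) or higher (to the right) in replicate 3, for the 31 lists with 6 or more tested members. The number tested is in brackets, and dashed lines give the percent over all genes tested, 29.6% higher and 14.6% lower. Ribosome biogenesis reaches farthest to the left with 84.2% and Wnt and β-catenin target genes farthest to the right with 77.8%.

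Ribosome biogenesis had the largest share called in a single direction among the lists with 6 or more tested members. Of 38 members, 32 were called lower, 0 higher and 6 neither, and the median log2 difference was -0.45, with -0.43 in control and -0.46 in *MDM4*. Under all alternatives between 25 and 33 members were lower, 0 higher. *RRS1*, a factor of the large subunit, was at 56.5, 55.2 and 28.2 FPKM in control and at 56.3, 57.5 and 29.7 FPKM in *MDM4*, and replicate 3 was 1.95-fold lower (-0.96 ± 0.053 (SE), adjusted p = 2.23e-06). *NIP7* was at 48.2, 49.2 and 27.1 FPKM in control and at 48.9, 50.3 and 29.6 FPKM in *MDM4* (-0.79 ± 0.056 (SE), adjusted p = 9.5e-06). *NOP56*, a core protein of box C/D snoRNPs, was at 219, 203 and 139 FPKM in control and at 202, 211 and 127 FPKM in *MDM4*. Its difference was -0.65 ± 0.052 (SE) (adjusted p = 1.83e-05). *PPAN* had the largest difference (-1.12), but a readthrough transcript with its neighbour makes its count uncertain. Lower values were also found for the RNA helicase gene *DDX21* (-0.68), the nucleolin gene *NCL* (-0.47), the preribosome factors *URB2* (-0.73) and *UTP15* (-0.62), and the RNA polymerase I subunit genes *POLR1B* (-0.48) and *POLR1A* (-0.21). *NPM1* (-0.023) and *FBL* (-0.00062), which are among the most abundant nucleolar proteins, did not pass the test.

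*MYC* itself was lower. *MYC* was at 212, 195 and 117 FPKM in control and at 205, 213 and 113 FPKM in *MDM4*, and no library overlapped between the sets (-0.84 ± 0.053 (SE), adjusted p = 4.83e-06). The E-box CACGTG is the letter sequence that MYC is known to bind. It was searched in RefSeq promoters of GRCh38.p14, each 250 bases before to 50 after the first start listed for a gene, which were matched for 10504 of the 12884 genes (by older symbols where needed). CACGTG reads the same on both strands, and it also lies within the longer motif TCACGTGA. Of 31 promoters matched for the 38 ribosome biogenesis genes, 12 held it (38.7%), compared with 1060 of all 10504 (10.1%). The share was 13.5% among the genes called lower, 8.79% among those called higher and 9.89% among those not called. A match is a description of the letters and was not tested as a site. The share in the list does not use the replicate 3 difference, and what part MYC had in that difference was not tested. The promoters of *WDR43* (-0.63) and *BYSL* (-0.61) are shown. Among the called members with a match that could be chosen, as described with the processing, these 2 had the largest difference. Both promoters hold a single E-box, with its first base at position 4 and 29 after the start, respectively. They are on the plus strand at chr2:28894417-28894716 and chr6:41921249-41921548, and the E-box is in capitals.
WDR43: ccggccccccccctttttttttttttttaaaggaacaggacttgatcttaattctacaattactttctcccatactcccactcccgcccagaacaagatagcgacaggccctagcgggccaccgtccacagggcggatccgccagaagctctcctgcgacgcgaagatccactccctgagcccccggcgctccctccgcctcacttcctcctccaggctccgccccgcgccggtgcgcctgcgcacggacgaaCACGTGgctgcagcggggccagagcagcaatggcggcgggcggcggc
BYSL: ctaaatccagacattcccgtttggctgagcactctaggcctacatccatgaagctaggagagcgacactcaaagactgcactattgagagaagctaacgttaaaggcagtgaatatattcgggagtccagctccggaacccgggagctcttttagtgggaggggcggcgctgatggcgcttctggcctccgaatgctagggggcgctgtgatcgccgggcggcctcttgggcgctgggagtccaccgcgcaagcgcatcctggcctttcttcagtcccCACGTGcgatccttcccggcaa

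Cytosolic ribosomal protein genes, in contrast to the factors that assemble ribosomes, had few calls on the deposited scale, and the count depended on the scaling. Of 79 tested, 2 were called higher and 1 lower, compared with 0 and 17 after median ratio scaling and 9 and 2 after quantile normalization. The median was 0.0050, with a sign that turned under median ratio scaling and without control replicate 2 or 3. *RPS4X* was at 1001, 1001 and 1162 FPKM in control and at 1026, 1029.9 and 1076 FPKM in *MDM4*, a difference of 0.14 ± 0.046 (SE). For *RPS28*, the only member called lower, the difference was -0.32 ± 0.094 (SE) (adjusted p = 0.0178). Among 20 aminoacyl-tRNA synthetase genes, *AARS* (0.36) and *QARS* (0.30) had the largest differences. Of the 20, 5 were called higher (25%) and 2 lower (10%), compared with 29.6% and 14.6% of all genes tested. Without control or *MDM4* replicate 3, 1 and 2 were higher, and median ratio scaling gave 2 higher and 5 lower, with a median of the other sign.

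Splicing factors were more often lower than higher. Of 36, 19 were called lower and 2 higher, with a median of -0.18, and without control or *MDM4* replicate 3 13 and 14 were lower and 0 higher. The 4 with the largest differences code for SR proteins, which bind exons through RNA recognition motifs and recruit the spliceosome. *SRSF6* was at 133, 139 and 71.4 FPKM in control and at 137, 135 and 71.5 FPKM in *MDM4* (-0.93 ± 0.048 (SE), adjusted p = 1.93e-06). *SRSF7* was at 109, 109 and 57.8 FPKM in control and at 107, 108 and 56.2 FPKM in *MDM4* (-0.93 ± 0.047 (SE), adjusted p = 1.93e-06). In both genes the 4 libraries of replicates 1 and 2 were within a narrow range and replicate 3 well below it. *SRSF2* (-0.69), *SRSF1* (-0.59), *SRSF3* (-0.55), *SRSF5* (-0.40) and *SRSF4* (-0.34) were also called lower, a subset singled out after the values were seen. SR protein genes are known to make unproductive isoforms with poison exons, which values per gene do not separate. Of the hnRNP genes, *HNRNPF* (-0.35) and *HNRNPD* (-0.18) were called lower, *HNRNPA2B1* (0.14) was called higher, and *HNRNPK* (-0.030) and *HNRNPC* (-0.055) did not pass the test.

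Genes of the G1/S transition and DNA replication were lower in part, and those of G2/M were called in both directions. In the G2/M list 22.9% were called higher and 28.6% lower, compared with 29.6% and 14.6% of all genes tested. Of 38 G1/S genes, 18 were called lower and 1, *GINS4*, higher, with a median of -0.16. In the fits without control or without *MDM4* replicate 3, 12 and 11 were called lower. *CCNE2*, a cyclin that activates CDK2 at the entry into S phase, was at 12.9, 16 and 8.48 FPKM in control and at 17.3, 16.7 and 9.03 FPKM in *MDM4*. Its difference was -0.83 ± 0.092 (SE) (adjusted p = 8.9e-05), and that of *CCNE1* was -0.63 ± 0.066 (SE) (adjusted p = 6.58e-05). The licensing factors *CDT1* (-0.51) and *CDC6* (-0.46) and the helicase subunit genes *MCM5* (-0.34) and *MCM4* (-0.29) were called lower, and *PCNA* (-0.10) and *TYMS* (-0.090) did not pass the test. Of 35 genes of G2/M, 8 were called higher and 10 lower, with a median of 0.0093 that changed sign under median ratio scaling and without control replicate 1, *MDM4* replicate 1 or *MDM4* replicate 3. The counts were 3 higher and 5 lower without control replicate 3, and 2 and 2 without *MDM4* replicate 3. *CDC25C*, the phosphatase that activates CDK1, was higher by 0.72 ± 0.078 (SE) (adjusted p = 8.07e-05), and *UBE2C*, the ubiquitin-conjugating enzyme of the anaphase-promoting complex, was lower (-0.43 ± 0.047 (SE), adjusted p = 7.95e-05). *CCND1*, the D-type cyclin counted among the Wnt target genes, was at 522, 535 and 363 FPKM in control and at 554, 535 and 363 FPKM in *MDM4*, a difference of -0.56 ± 0.043 (SE) (adjusted p = 1.46e-05). The replication-independent linker histone *H1F0*, known for its rise in cells that stop dividing, was at 214, 209 and 320.1 FPKM in control and at 193, 189 and 319 FPKM in *MDM4*. It was higher in both replicate 3 libraries (0.67 ± 0.049 (SE), adjusted p = 1.13e-05), and of 25 histone genes tested 7 were called higher and 2 lower, or 3 and 1 with either replicate 3 library left out. The shares of the histone list, 28% higher and 8% lower, compare with 29.6% and 14.6% of all genes tested. Most histone mRNAs lack a poly(A) tail, and the library preparation selected poly(A), so that their levels are only partly captured.

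The letters TTTCCCGC, a form of the site bound by E2F factors, were searched on both strands in the same promoters. Of 33 promoters matched for the 38 G1/S genes, 10 held them (30.3%), compared with 274 of all 10504 (2.61%). The share was 3.64% among the genes called lower, 2.35% among those called higher and 2.47% among those not called. Here too the share in the list does not use the replicate 3 difference, and the part of E2F factors was not tested. The promoters of *UHRF1* (-0.59), a reader of hemimethylated DNA, and *GINS3* (-0.55), a subunit of the GINS replication complex, are shown. Among the called members with a match that could be chosen, as described with the processing, these 2 had the largest difference. The match, in capitals, has its first base at -14 and -5 relative to the start. Both are on the plus strand, at chr19:4909251-4909550 and chr16:58392221-58392520, and in both the match is on the opposite strand.
UHRF1: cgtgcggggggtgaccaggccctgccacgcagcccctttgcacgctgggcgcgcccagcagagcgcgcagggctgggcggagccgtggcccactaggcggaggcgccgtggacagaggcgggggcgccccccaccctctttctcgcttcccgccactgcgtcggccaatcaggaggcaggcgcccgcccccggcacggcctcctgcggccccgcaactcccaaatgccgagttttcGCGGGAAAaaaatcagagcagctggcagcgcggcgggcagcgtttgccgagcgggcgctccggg
GINS3: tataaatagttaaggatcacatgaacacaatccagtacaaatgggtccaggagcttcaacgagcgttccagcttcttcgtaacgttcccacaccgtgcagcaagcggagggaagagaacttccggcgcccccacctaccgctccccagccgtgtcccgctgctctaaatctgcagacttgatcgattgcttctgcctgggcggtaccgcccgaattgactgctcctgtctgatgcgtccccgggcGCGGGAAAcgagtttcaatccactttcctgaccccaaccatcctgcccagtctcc

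YAP and TEAD target genes and genes of the actin cytoskeleton were lower. Of 29 YAP and TEAD target genes, 20 were called lower and 2 higher, with a median of -0.41, and the median was between -0.51 and -0.33 under all alternatives. Besides *F3*, the members with the largest differences were *WTIP* (-1.08), *CYR61* (-0.91), *FJX1* (-0.79) and *NT5E* (-0.77). *CYR61*, a secreted matricellular protein, was at 17.4, 16.7 and 8.23 FPKM in control and at 14.5, 16.8 and 9.07 FPKM in *MDM4*. The canonical targets *CTGF* (-0.51 ± 0.14 (SE), adjusted p = 0.0119) and *ANKRD1* (-0.61 ± 0.055 (SE), adjusted p = 3.33e-05) were also called lower. *YAP1*, the coactivator itself, was lower by -0.32 ± 0.072 (SE) (adjusted p = 0.00496), and its paralog *WWTR1* (-0.027) did not pass the test. The members called higher were *NUAK2* (0.53) and the factor *TEAD1* (0.32). In the fits that lack control or *MDM4* replicate 3, 13 and 15 were called lower. Of the 27 genes of the SRF and actin list, 14 were called lower and 3 higher, and 11 and 9 lower in the same 2 fits. *TAGLN*, an actin-binding protein of contractile cells, was at 6.23, 6.65 and 2.63 FPKM in control and at 7.6, 7.27 and 2.2 FPKM in *MDM4* (-1.48 ± 0.12 (SE), adjusted p = 1.58e-05). The myosin light chain gene *MYL9* (-0.81) and the focal adhesion genes *ZYX* (-0.66) and *VCL* (-0.55) were called lower, and *TLN1* (0.27) and *ACTN4* (0.22) higher. *ACTB*, often used as a reference gene, was at 2655, 2387 and 2044 FPKM in control and at 2346, 2455 and 1936 FPKM in *MDM4*. It was called lower (-0.31 ± 0.050 (SE), adjusted p = 7.74e-04), a call that was lost after quantile normalization. *GAPDH* was at 3512 and 3348 FPKM in replicate 3 and 3408 to 3728 FPKM in the others and did not pass the test (-0.048 ± 0.048 (SE), adjusted p = 0.443).

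The immediate early genes and AP-1 genes, which growth factors and stress induce within minutes, moved in both directions. Of 30, 15 were called higher and 5 lower, and 9 and 8 were higher without the replicate 3 library of control or of *MDM4*. *FOSL1*, a member of the FOS family, was at 156, 132 and 70.0 FPKM in control and at 153, 149 and 67.6 FPKM in *MDM4*. It was lower by 2.14-fold (-1.09 ± 0.068 (SE), adjusted p = 4.49e-06). *FOS* was at 22.2, 20.6 and 31.6 FPKM in control and at 17.7, 17.4 and 30.6 FPKM in *MDM4* and was called higher (0.68 ± 0.073 (SE), adjusted p = 7.39e-05), as were *EGR1* (0.69), the orphan receptor gene *NR4A1* (0.78) and *KLF2* (1.06). *JUN* (-0.13) did not pass the test. *DUSP2* (-0.88) was called lower and *DUSP5* (0.66) higher, 2 phosphatases that switch off MAP kinases. *EREG*, a ligand of the EGF receptor, was at 84.7, 107 and 46.5 FPKM in control and at 115, 108 and 53.2 FPKM in *MDM4* (-1.05 ± 0.080 (SE), adjusted p = 1.46e-05). The EGF receptor ligand genes *HBEGF* (-0.30) and *AREG* (-0.22) were also called lower.

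Wnt and β-catenin target genes were the list with the largest share of genes higher in replicate 3. Of 27 tested, 21 were called higher and 4 lower, with a median of 0.40, and of 0.37 in control and 0.43 in *MDM4*. *DKK4*, a secreted Wnt inhibitor that TCF and β-catenin induce, was at 8.12, 6.69 and 18.5 FPKM in control and at 3.26, 4.47 and 14.2 FPKM in *MDM4*. Its level also differed between the groups, and in each group replicate 3 was the highest library (1.59 ± 0.15 (SE), adjusted p = 4.21e-05). *EPHB3*, a receptor that positions cells in the crypt, was at 2.96, 2.64 and 8.0 FPKM in control and at 2.43, 2.53 and 6.6 FPKM in *MDM4* (1.43 ± 0.11 (SE), adjusted p = 1.16e-05). *TDGF1* (1.02), *TNFRSF19* (0.95), the feedback inhibitor genes *NKD1* (0.77) and *APCDD1* (0.63), the transcription factor gene *SP5* (0.73) and the crypt stem cell gene *ASCL2* (0.57) were higher as well. The most general target, *AXIN2*, was at 109, 105 and 115 FPKM in control and at 89.9, 87.8 and 109 FPKM in *MDM4*, a small difference of 0.20 ± 0.056 (SE) (adjusted p = 0.014). The members called lower were *BMP4* (-0.66), *CCND1* (-0.56), *DKK1* (-0.51) and *CD44* (-0.15). Without control replicate 3, 18 members were called higher, and without *MDM4* replicate 3, 12.

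The lists of colon epithelial identity and of TGF-β targets had members in both directions. Among 24 tested colon epithelial genes, 10 were called higher (41.7%) and 3 lower (12.5%), and without the replicate 3 library of control or of *MDM4* 8 and 7 were higher, 0 and 2 lower. *HNF4A*, the nuclear receptor of differentiated enterocytes, was at 3.59, 3.21 and 5.19 FPKM in control and at 2.97, 3.29 and 5.1 FPKM in *MDM4* (0.64 ± 0.11 (SE), adjusted p = 9.14e-04). *ELF3* (0.75), *GATA6* (0.96) and the claudin genes *CLDN3* (0.60) and *CLDN4* (0.56) were also called higher, and *KRT7* (-0.71) and the tight junction gene *TJP1* (-0.31) lower. *CDX2* (0.19) and *EPCAM* (0.037) did not pass the test. In the list of TGF-β targets and EMT genes, 11 of 25 were called higher and 6 lower, with 6 and 5 higher in the same 2 fits. Calls in the 2 directions stood in a ratio near that of all genes tested, and median ratio scaling gave 7 higher and 8 lower. The highest, *SMAD6* (1.12), *ID3* (0.83) and *ID1* (0.81), are known as targets of BMP signalling. *ID1* was at 80.0, 72.1 and 139 FPKM in control and at 79.2, 79.4 and 134 FPKM in *MDM4* (0.81 ± 0.057 (SE), adjusted p = 9.39e-06). The urokinase gene *PLAU* (-0.56) and the latent TGF-β binding protein gene *LTBP2* (-0.81) were lower.

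Lysosome and autophagy genes were higher by small amounts in nearly the whole list. Of 35 members, 21 were called higher and 1 lower, and 34 had a positive difference, with a median of 0.20. *ULK1*, the kinase that starts autophagy, was at 3.98, 3.29 and 7.9 FPKM in control and at 3.66, 3.65 and 7.46 FPKM in *MDM4* (1.06 ± 0.11 (SE), adjusted p = 5.15e-05). *GABARAPL1*, a protein of the autophagosome membrane, was at 23.6, 22.2 and 37.5 FPKM in control and at 23.1, 24.4 and 39.2 FPKM in *MDM4* (0.71 ± 0.061 (SE), adjusted p = 2.33e-05). Both genes had all 4 libraries of replicates 1 and 2 below replicate 3. Lysosomal members such as *NEU1* (0.51), *NPC1* (0.41), the proton pump gene *ATP6V1A* (0.38) and the cathepsin gene *CTSD* (0.29) had smaller differences. The autophagy receptor gene *SQSTM1* (-0.13) was the member called lower, and *TFEB* (0.41 ± 0.16 (SE), adjusted p = 0.0543), the factor that drives these genes, did not pass the test. After median ratio scaling the median of the list was 0.094, and with either replicate 3 library left out 8 members were called higher.

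Fatty acid synthesis genes were higher in part, and the cholesterol genes were near the background. In the fatty acid list, 10 of 16 were called higher and 0 lower, with a median of 0.27. With control or *MDM4* replicate 3 left out, 8 and 6 were higher. *ACSS2*, which makes acetyl-CoA from acetate, was at 19.3, 19.4 and 31.2 FPKM in control and at 17.6, 16.7 and 28.6 FPKM in *MDM4* (0.71 ± 0.062 (SE), adjusted p = 2.79e-05). The elongase gene *ELOVL6* (0.64), *LPIN1* (0.51) and the transcription factor gene *SREBF1* (0.45) followed, and *FASN* (-0.065), *ACLY* (0.082) and *ACACA* (0.18), the enzymes of the main chain of synthesis, did not pass the test. In the cholesterol list, 9 of 25 were called higher (36%) and 0 lower, compared with 29.6% and 14.6% of all genes. The counts were 3 and 5 higher in the same 2 fits, and 5 higher and 3 lower after median ratio scaling, with *MVK* (0.59) and *TM7SF2* (0.58) at the top.

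Glycolysis had 7 of 19 members lower (36.8%) and 3 higher (15.8%), compared with 14.6% and 29.6% of all genes tested. The counts were 1 and 1 without control replicate 3, 3 and 2 without *MDM4* replicate 3, and after median ratio scaling 12 and 2. Among those called on the deposited scale were *HK2* (-0.37) and *PFKP* (-0.30) lower and *PFKM* (0.40) and *HK1* (0.28) higher. The 76 nuclear genes of oxidative phosphorylation had 7 called higher and 1 lower, fewer than the background share. With control or *MDM4* replicate 3 left out 1 and 2 were higher, and median ratio scaling gave 1 higher and 6 lower, with the median moved from 0.067 to -0.037. On the deposited scale *SDHA* (0.25) and *COX6B1* (0.25) were among those higher. In the hypoxia list, 4 were higher (16.7%) and 7 lower (29.2%) of 24, compared with 29.6% and 14.6% of all genes tested. With either replicate 3 library left out, 2 were higher and 3 lower. *EPAS1*, which codes for HIF-2α, was at 40.0, 40.5 and 69.7 FPKM in control and at 38, 41.4 and 66.6 FPKM in *MDM4* (0.77 ± 0.057 (SE), adjusted p = 1.2e-05). *ADM* (-0.79) and *BNIP3* (-0.49), 2 targets of HIF, were lower, and *ANKRD37* (0.85), the member with the largest difference, was higher.

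Among the stress programmes, the NRF2 list had more calls lower than higher. Of 28 genes, 11 were called lower (39.3%) and 2 higher (7.14%), compared with 14.6% and 29.6% of all genes tested. Without control or *MDM4* replicate 3, 8 and 7 were lower. The median was only -0.052, with 0.011 in control and -0.087 in *MDM4*, and its sign turned without *MDM4* replicate 3. *TXNRD1*, thioredoxin reductase, was at 186, 206 and 123 FPKM in control and at 248, 239 and 138 FPKM in *MDM4* (-0.74 ± 0.058 (SE), adjusted p = 1.58e-05). Heme oxygenase gene *HMOX1* (-0.77), the glutathione synthesis genes *GCLM* (-0.58) and *GCLC* (-0.55), and *KEAP1* (-0.72), the inhibitor of NRF2, were lower, while *NQO1* (-0.050) did not pass the test and *GPX2* (0.89) was higher. The ATF4 list had 13 of 30 higher (43.3%) and 6 lower (20%), compared with 29.6% and 14.6% of all genes tested. In each of those 2 fits 8 were higher, and the median of 0.18 kept its sign under every alternative. Its extremes were the glycoprotein hormone gene *STC2*, which was at 125, 126 and 59.6 FPKM in control and at 142, 124 and 62.3 FPKM in *MDM4* (-1.08 ± 0.060 (SE), adjusted p = 2.23e-06), and *JDP2* (0.90). *SESN2* (0.64), *CEBPB* (0.55) and *CTH* (0.68) were higher, and the amino acid transporter genes *SLC7A5* (-0.30) and *SLC3A2* (-0.32) and *ATF5* (-0.85) lower. The list of cytosolic heat shock genes had 5 higher and 3 lower of 23, or 2 and 3 higher without control or *MDM4* replicate 3 and 4 higher and 9 lower after median ratio scaling. On the deposited scale 21.7% of the heat shock genes were higher and 13.0% lower, and 14.3% of the unfolded protein response in each direction. Of all genes tested, 29.6% were called higher and 14.6% lower. *HSPA8*, the constitutive HSP70, was at 1274, 1335 and 913 FPKM in control and at 1301, 1319 and 885 FPKM in *MDM4* (-0.54 ± 0.042 (SE), adjusted p = 1.58e-05). The unfolded protein response had 3 of 21 called in each direction, compared with 1 higher and 0 lower without control replicate 3 and 0 in either direction without *MDM4* replicate 3. Of 11 metallothionein and metal genes 4 were lower (36.4%), among them *MT1E* (-0.58) and *MT2A* (-0.53), and 2 higher (18.2%). Of 32 proteasome genes 4 were lower (12.5%) and 1 higher (3.13%), compared with 14.6% and 29.6% of all genes tested. The lower calls were 2 in each of these lists without control replicate 3, and 3 and 0 without *MDM4* replicate 3. Metallothioneins are closely similar genes, so reads may be shared between them.

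SW480 cells carry mutant p53, and its target genes were counted for their other regulators. Of 30, 12 were called higher (40%) and 5 lower (16.7%), compared with 29.6% and 14.6% of all genes, and 5 were higher with either replicate 3 library left out. *CDKN1A*, the p21 inhibitor of cyclin-dependent kinases, was at 87.9, 76 and 131 FPKM in control and at 83.9, 92.1 and 132 FPKM in *MDM4* (0.63 ± 0.068 (SE), adjusted p = 7.27e-05). *TP53INP1* (1.08) and *CCNG2* (1.03) had the largest positive differences and *PLK2* the largest negative. *PLK2* was at 61.1, 60.0 and 30.2 FPKM in control and at 69.4, 68.8 and 29.5 FPKM in *MDM4* (-1.11 ± 0.062 (SE), adjusted p = 2.23e-06). *MDM2*, the partner of *MDM4*, was lower by -0.32 ± 0.070 (SE) (adjusted p = 0.0045).

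Cytokine genes and NF-κB targets were called in both directions. The shares were 37.9% higher and 24.1% lower for the cytokine list and 26.7% and 23.3% for the NF-κB list. Of all genes tested, 29.6% were called higher and 14.6% lower. Of 29 cytokine and growth factor genes, 11 were called higher and 7 lower, compared with 10 and 4 without control replicate 3 and 7 and 5 without *MDM4* replicate 3. *CX3CL1*, a membrane-bound chemokine, was at 1.68, 2.16 and 3.43 FPKM in control and at 1.64, 1.4 and 4.11 FPKM in *MDM4* (1.10 ± 0.17 (SE), adjusted p = 5.51e-04). *TNF* (0.82), *IL15* (0.79) and *GDF15* (0.75) were also higher. *IL7* (0.82) was called higher too, with 0.21 in control and 1.42 in *MDM4*, but its libraries overlapped. Control replicate 3 was at 0.965 FPKM of *IL7* and control replicate 2 at 0.976 FPKM. *CSF2*, the growth factor GM-CSF, was at 31.5, 32.4 and 15.7 FPKM in control and at 28.8, 31.2 and 17.3 FPKM in *MDM4* (-0.90 ± 0.072 (SE), adjusted p = 1.72e-05). In the NF-κB list of 30, 8 were higher and 7 lower, with 3 higher without *MDM4* replicate 3 and 3 lower without control replicate 3, with *TNFAIP8* (0.96) highest and *NFKB1* (-0.68), the gene of the p105 and p50 subunit, lowest. Of 20 genes of MHC class I presentation 3 were higher (15%) and 0 lower, compared with 29.6% and 14.6% of all genes tested. Without *MDM4* replicate 3, 0 were higher and 1 lower.

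The replicate 3 difference was not the same in the 2 groups for a small set of genes. The interaction of group and replicate 3 in limma called 25 genes (0.194%), 24 of them higher in *MDM4* and 1 lower, and 293 genes had an unadjusted p under 0.05. Leaving out control replicate 1 or 2 raised the count to 112 and 87, and leaving out *MDM4* replicate 1 or 2 to 49 and 52. Each replicate 3 term rests here on 1 library per group. Of the 25, 19 are in the list of interferon-stimulated genes, which antiviral signalling induces. *IFI6* was at 162, 169.8 and 21.3 FPKM in control and at 15.2, 16.7 and 19.6 FPKM in *MDM4*. Control replicate 3 thus stood near the *MDM4* libraries and far below control replicates 1 and 2, and the difference in *MDM4* minus that in control was 3.25 ± 0.14 (SE) (adjusted p = 5.07e-07). *MX1*, a GTPase that blocks viruses, was at 30.6, 30.4 and 5.65 FPKM in control and at 3.86, 3.75 and 5.26 FPKM in *MDM4* (2.87 ± 0.18 (SE), adjusted p = 1.31e-05). *IFIT2* was at 6.01, 6.83 and 1.02 FPKM in control and at 0.872, 0.981 and 1.31 FPKM in *MDM4* (3.0 ± 0.30 (SE), adjusted p = 0.00124). The type III interferon genes *IFNL2* and *IFNL3*, which are closely similar copies, were each listed at 0 in control replicate 3. *IFNL3* was at 1.98, 2.22 and 0 FPKM in control and at 0.0854, 0 and 0.188 FPKM in *MDM4*, and *IFNL2* was at 1.31, 2.1 and 0 FPKM in control and at 0, 0 and 0.0412 FPKM in *MDM4*. Their interaction values of 5.54 ± 0.70 (SE) and 4.64 ± 0.75 (SE) depend on the pseudocount and are no bound. Both genes passed the filter of 0.5 FPKM only through control replicates 1 and 2. The filter thus favoured a low control replicate 3, and their interaction is no separate evidence.

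The 56 interferon-stimulated genes tested therefore had no common replicate 3 difference. Their median was -0.78 in control and 0.33 in *MDM4*. Over both groups 9 were called lower (16.1%) and 4 higher (7.14%), compared with 14.6% and 29.6% of all genes tested. Without control replicate 3, 1 was lower and 19 were higher, and without *MDM4* replicate 3, 40 were lower and 1 was higher. *OAS2* and *GBP1* (-1.14) were below the other libraries in both groups, and *STAT2* (0.69) was called higher. *GBP1* averaged 0.226 FPKM in replicate 3 and passed the filter of 0.5 FPKM only through replicates 1 and 2. The other 8 lists in the plot of list levels by library had the same sign in both replicate 3 libraries, except the cytosolic ribosomal proteins at 0.025 and -0.0023.

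**Figure D5:**
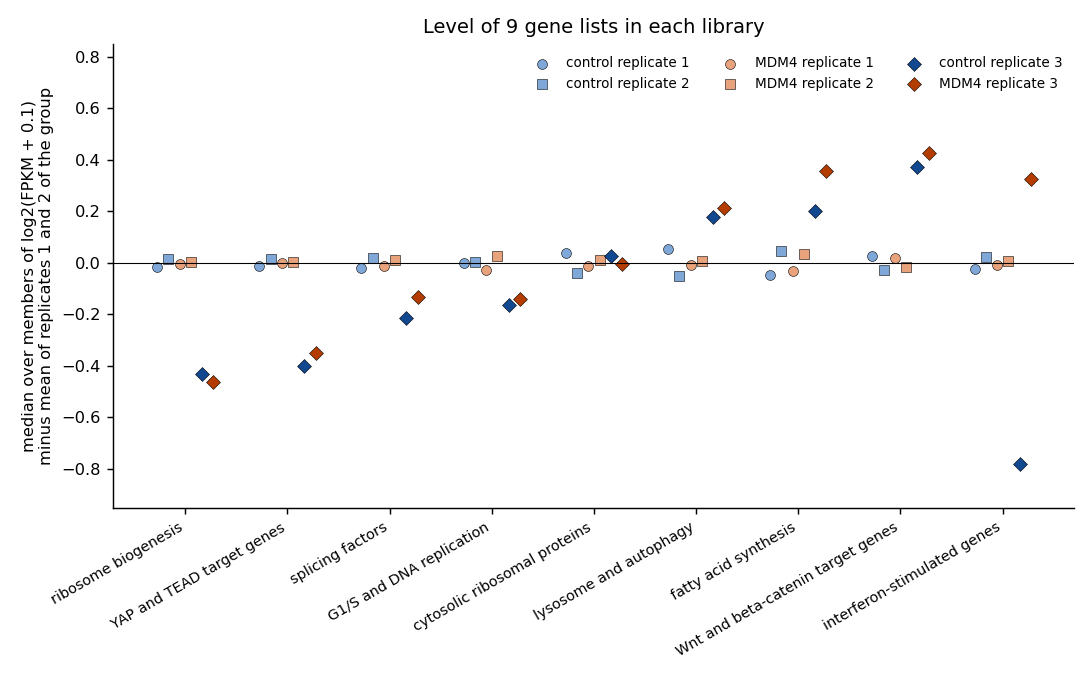
Level of 9 gene lists in each library (y axis), as the median over members of log2(FPKM + 0.1) minus the mean of replicates 1 and 2 of the same group, so that replicates 1 and 2 mirror each other around 0. Circles and squares are replicates 1 and 2 and diamonds replicate 3, blue for control and orange for *MDM4*. Interferon-stimulated genes are at -0.78 in control replicate 3 and at 0.33 in *MDM4* replicate 3, while ribosome biogenesis is at -0.43 and -0.46.

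Outside the interferon genes, *CD99*, a surface glycoprotein, was at 38.9, 32.6 and 2.37 FPKM in control and at 32.3, 34.7 and 42.6 FPKM in *MDM4*. It was thus low in a single library, control replicate 3, with an interaction of 4.20 ± 0.17 (SE) (adjusted p = 5.07e-07). *MDM4* was the gene with the negative interaction (-1.35 ± 0.15 (SE), adjusted p = 0.00166). *MDM4* was at 6.35, 7.09 and 5.13 FPKM in control and at 188, 185 and 56.3 FPKM in *MDM4*. Each *MDM4* library was above each control library, which matches how the labels and columns were read. *MDM4* replicate 3 was 3.32-fold below the mean of its other replicates in FPKM. Over both groups its replicate 3 difference was -1.05 ± 0.22 (SE) (adjusted p = 0.00296), of which -0.38 was in control and -1.73 in *MDM4*.

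Signs of other cells were small. The summed level of the 8 fibroblast and endothelial markers was 4.67 and 4.69 FPKM in the replicate 3 libraries and 2.24 to 2.92 FPKM in the others (exact two-sided p = 0.133). Most of it was *COL1A1*, which was at 2.33, 1.6 and 3.71 FPKM in control and at 1.99, 1.87 and 3.8 FPKM in *MDM4*. *VWF* was at 0.616 and 0.633 FPKM in replicate 3 and 0.316 to 0.438 FPKM in the others, and *COL3A1* at 0.054 and 0.022 FPKM against at most 0.010 FPKM, also without overlap. *COL1A2*, *DCN* and *PECAM1* were at or near 0 in each library. The 9 haematopoietic markers summed to 6.99 and 7.28 FPKM in replicate 3 and to 6.10 to 17.8 FPKM in the others (exact two-sided p = 0.8), the highest being control replicate 1 with 10.5 FPKM of *HBB*. *PTPRC* and *SPI1* were listed at 0 in both replicate 3 libraries. The 7 epithelial markers summed to 4221 and 4544 FPKM in replicate 3 and to 4424 to 4901 FPKM in the others (exact two-sided p = 0.4). What part these levels have in the differences was not tested.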

How the data were processed

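Poly(A) RNA of 6 SW480 libraries, 3 control and 3 *MDM4*, was sequenced by Illumina HiSeq2000. FPKM values were deposited for 19225 symbols, and 2036 of these had no value above 0. The aligner, the counter, the annotation and the genome build are not given in the sources used here. The table's columns carry a letter and a number, read as G for control and M for *MDM4* with the replicate number.

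Whole reads were recovered from the steps of the FPKM values for 16536 of 17189 symbols above 0 (96.2%); the others were above 0 in 1 library only. They were used for depth, for implied gene length and for a voom alternative. No intervals for counting error are given. Precision came from the spread of the 6 libraries.

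For the 12884 genes that averaged 0.5 FPKM or more, limma 3.58.1 (R 4.3.3; lmFit and eBayes with trend) was run on log2(FPKM + 0.1) with terms for the *MDM4* group and for replicate 3. A second model had a replicate 3 term in each group and gave their difference, the interaction. P-values were adjusted over all genes by the Benjamini-Hochberg method, and a gene was called at an adjusted p under 0.05. Differences are on the log2(FPKM + 0.1) scale, which understates those of low genes. The fit was tested on simulated data. Single values were tested by exact permutation, two-sided, with scipy 1.17.1. Tables and plots used Python 3.11.15, numpy 2.4.6, pandas 2.3.3 and matplotlib 3.10.9.

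Replicate 3 was singled out, and the gene lists were written from general knowledge, with earlier results of these data known, so that the calls are no independent evidence that replicate 3 stands apart. Named genes are *MDM4*, *GAPDH*, *ACTB*, the 12 genes with the largest difference in each direction among those called, with an absolute log2 difference over 1, a mean of at least 1 FPKM and both replicate 3 libraries outside the range of the others, up to 4 called members of each list by size of difference, and the 6 genes with the largest interaction among those called. Other list members in the text were chosen after their values were seen. Some named items are not reported here. Promoters came from RefSeq (GRCh38.p14), with the first start listed for a gene. Genes on chromosome 8 were left out when the promoters to show were chosen, but not from the shares. Shares of promoters with a motif were given for lists with at least 80% of the members matched. The alternatives changed the pseudocount, the filter, the scaling, the trend of eBayes or the group term, used voom, or left out each library in turn.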

Additional observations from a re-analysis of the deposited data

Results flagged for a closer look

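In 25 genes the replicate 3 difference was not the same in control and *MDM4* by the limma interaction, which rests on 1 replicate 3 library per group. The differences in *MDM4* minus those in control were 5.54 for *IFNL3*, 4.64 for *IFNL2*, 4.2 for *CD99*, 3.25 for *IFI6*, 3.0 for *IFIT2* and 2.87 for *MX1*, the 6 with the largest values. Among other genes named here, they were 2.19 for *IFI27*, 1.24 for *ISG15* and -1.35 for *MDM4*. *IFNL2* and *IFNL3* passed the filter of 0.5 FPKM only through control replicates 1 and 2. Control replicate 3 was the library that stood apart for *CD99*, and *MDM4* replicate 3 stood apart within its group for *MDM4*. For *IFI6*, *IFIT2* and *MX1*, control replicate 3 stood near the *MDM4* libraries and far below control replicates 1 and 2. The cause was not tested.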

How the results depend on the processing

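No paired analysis was possible because the replicate number is itself the factor compared and cannot also be a block. A filter of at least 5 FPKM tested 9103 genes and no filter 17189, compared with 12884, so the counts under these are of other totals. The number of genes called higher in replicate 3 was 3808, and moved to 2482 with the filter of 5 FPKM and to 2462 with median ratio scaling. With each library left out it was between 1504 and 4259. The number called lower was 1877, and moved to 2958 with median ratio scaling and to between 920 and 2165 with each library left out. The number called and over 2-fold higher was 263, and became 122 and 54 with pseudocounts of 0.5 and 1, 29 with the filter of 5 FPKM, 398 with no filter and 119 with quantile normalization. The number called and over 2-fold lower was 64, and became 41 and 28 with those pseudocounts, 31 with the filter of 5 FPKM and 140 with quantile normalization. The interaction called 25 genes and between 49 and 112 with each library of replicates 1 and 2 left out. The other scaling and testing alternatives stayed within 1.5 times of these counts.

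Of the genes called higher, 66.6% were called higher also after quantile normalization and 64.7% after median ratio scaling, and 96.1% with voom on recovered reads. Without control replicate 3 the sign changed for 7 of the genes named, for which the range over the libraries left out was -4.46 to 1.08 for *IFNL3*, -4.14 to 0.50 for *IFNL2*, -3.86 to 0.35 for *CD99*, -2.95 to 0.30 for *IFI6*, -2.54 to 0.46 for *IFIT2*, -2.41 to 0.46 for *MX1* and -2.06 to 0.13 for *IFI27*. Among genes that did not pass the test, the sign also changed with a library left out for *FBL* (-0.066 to 0.065), *NPM1* (-0.060 to 0.014), *NQO1* (-0.14 to 0.043) and *WWTR1* (-0.094 to 0.040), for *FBL* with TPM scaling (0.0046), quantile normalization (0.045) and voom (0.0017), for *NPM1* with quantile normalization (0.035), and for *ACLY* (-0.022) and *EPCAM* (-0.067) with median ratio scaling. The cause was not tested. Of 207 called genes that the rule or the text names, the call was lost for 39 without control replicate 3, 46 without *MDM4* replicate 3 and 3 to 15 without another library. It was lost for 26 with eBayes without trend, 17 without the group term (*MDM4* among them), 15 after quantile normalization (*ACTB* among them, at -0.036), 12 with no filter, 11 after median ratio scaling, 6 with voom and 1 with a pseudocount of 1. Differences of genes near 0.5 FPKM rest on few reads and on the pseudocount, and 2 against 4 libraries limit the exact permutation test of a single value to p = 0.133.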
